A study of Mus musculus with 45 samples.

Results

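Cyclins and cyclin-dependent kinases were followed through 4 stages of early mouse development and after loss of the transcription factor GABPA. The 10 genes were chosen by symbol as the core set that drives G1, S phase and mitosis: the D-type cyclins *Ccnd1*, *Ccnd2* and *Ccnd3*, the E-type cyclins *Ccne1* and *Ccne2*, the A-type cyclin *Ccna2*, the B-type cyclin *Ccnb1* and the kinases *Cdk1*, *Cdk2* and *Cdk4*. They are 10 of the 55385 genes in the deposited tables, and all 10 passed the filter on low counts at every stage. The largest losses after dTAG13 were of *Ccnd3* and *Ccne1* in ES cells, to 19.5% and 28.5% of DMSO, and of *Ccnd1* in the E4.5 ICM, 4.76-fold, while no member passed the threshold in morulae.

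Cyclin-dependent kinases are inactive alone and are switched on by binding a cyclin, whose level is set by transcription and by ubiquitin-mediated destruction. D-type cyclins with CDK4 or CDK6 phosphorylate the retinoblastoma protein, which releases E2F factors, and E-type cyclins with CDK2 then drive entry into S phase. Cyclin A2 acts in S phase and mitosis, and cyclin B1 with CDK1 starts mitosis. Mouse ES cells and early embryonic cells are known for a short G1 phase and for high cyclin E–CDK2 activity.

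The data were 18 RNA-seq libraries from *Gabpa*-dTAG/dTAG mouse embryos and embryonic stem (ES) cells, in which both copies of *Gabpa* carry an FKBP degron and an HA epitope, so the DMSO controls carry the same alleles as the treated samples. dTAG13, a small molecule that brings the tagged protein to a ubiquitin ligase for degradation, was given at 1 µM to embryos and at 0.5 µM for 24 h to ES cells. There were 3 DMSO and 3 dTAG13 libraries at the late 2-cell stage (treated from the mid-zygote stage), and 2 and 2 each for morulae (treated from the 4-cell stage), for the E4.5 inner cell mass (ICM, treated from the early blastocyst) and for 2iES, E14 ES cells in 2i/LIF medium. The embryos came from in vitro fertilization of a line backcrossed to C57BL/6J, the ICM was freed of trophectoderm by immunosurgery and is a mixture of epiblast and primitive endoderm (the labels give E4.5, and the study's methods place its collection at the mid-blastocyst), and the ES cell line was picked as a single clone. The question was how the cell-cycle genes differ between stages and with GABPA loss, since GABPA is an ETS-family activator that binds near the start sites of many housekeeping genes. Levels are given in TPM, which is scaled for transcript length and library size, and dTAG13 effects as log2 ratios to DMSO of scaled counts with their standard error. "Changed", "rose" and "fell" mean an adjusted p under 0.05 in edgeR's quasi-likelihood test, adjusted over all genes tested at that stage by the Benjamini-Hochberg method, and "past the study's cut-offs" adds a minimum fold change of 2 and a mean FPKM of 1 or more in DMSO or dTAG13.

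On GRCm38 the members lie on 7 chromosomes. The D-type cyclins are *Ccnd1* (chr7:144929931-144939925, minus strand), *Ccnd2* (chr6:127125162-127152193, minus) and *Ccnd3* (chr17:47505051-47599691, plus). The E-type cyclins are *Ccne1* (chr7:38097984-38107534, minus) and *Ccne2* (chr4:11191351-11204779, plus), and the mitotic cyclins are *Ccna2* (chr3:36564865-36572150, minus) and *Ccnb1* (chr13:100778650-100786570, minus). All 3 kinases lie on chromosome 10: *Cdk1* at chr10:69335146-69352938 (minus), *Cdk2* at chr10:128697939-128705031 (minus) and *Cdk4* at chr10:127063534-127067920 (plus). The library kit does not mark strand, so reads from overlapping genes on the opposite strand cannot be told apart; such overlaps covered 23.36% of the exonic bases of *Ccnd1* (with *LTO1*), 19.73% of *Cdk4* (*Tspan31*), 17.42% of *Ccne2* (*Ints8*) and 12.49% of *Ccna2* (*Exosc9*), and under 5% of the others. *Ccnb1* shared 27.7% of its 31-base words with other genes, mostly processed pseudogenes, but the 3 leading pseudogenes held only 0.155% to 0.887% of the *Ccnb1* count.

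Start-site sequences show how differently these promoters are built. RefSeq promoter windows of 300 bases on GRCm38.p6, 250 before and 50 after the start, were matched for 6 of the 10 members, and the 4 shown belong to a D-type cyclin with a GABPA-type motif and to each of the 3 kinases. Windows were searched on both strands for the GABPA core CCGGAAG, the CCAAT box, the E-box CACGTG, which reads the same on both strands, and the E2F motif TTTCGCGC or TTTGGCGC. Capitals mark these motifs, 5′ to 3′ on the gene's own strand, with ATTGG being the CCAAT box on the other strand.
*Ccnd3*, downstream start, chr17:47593217-47593516, plus strand: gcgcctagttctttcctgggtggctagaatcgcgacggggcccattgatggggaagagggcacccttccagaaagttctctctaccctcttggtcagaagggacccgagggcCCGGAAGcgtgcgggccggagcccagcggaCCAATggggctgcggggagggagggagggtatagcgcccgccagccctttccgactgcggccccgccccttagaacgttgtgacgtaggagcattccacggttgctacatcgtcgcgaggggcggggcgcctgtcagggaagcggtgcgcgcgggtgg
*Cdk4*, chr10:127063285-127063584, plus strand: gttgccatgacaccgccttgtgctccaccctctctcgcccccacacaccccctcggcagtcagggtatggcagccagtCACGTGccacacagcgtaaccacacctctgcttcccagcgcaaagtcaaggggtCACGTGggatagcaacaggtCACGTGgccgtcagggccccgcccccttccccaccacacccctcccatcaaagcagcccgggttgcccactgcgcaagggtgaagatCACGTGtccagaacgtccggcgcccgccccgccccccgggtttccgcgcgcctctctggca
*Cdk2*, chr10:128705002-128705301, minus strand: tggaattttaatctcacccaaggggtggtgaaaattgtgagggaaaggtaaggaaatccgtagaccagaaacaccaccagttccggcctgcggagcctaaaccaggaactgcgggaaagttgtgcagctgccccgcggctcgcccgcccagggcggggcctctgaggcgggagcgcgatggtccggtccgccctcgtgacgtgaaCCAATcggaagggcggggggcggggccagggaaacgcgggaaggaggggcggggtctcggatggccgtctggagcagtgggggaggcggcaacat
*Cdk1*, chr10:69352863-69353162, minus strand: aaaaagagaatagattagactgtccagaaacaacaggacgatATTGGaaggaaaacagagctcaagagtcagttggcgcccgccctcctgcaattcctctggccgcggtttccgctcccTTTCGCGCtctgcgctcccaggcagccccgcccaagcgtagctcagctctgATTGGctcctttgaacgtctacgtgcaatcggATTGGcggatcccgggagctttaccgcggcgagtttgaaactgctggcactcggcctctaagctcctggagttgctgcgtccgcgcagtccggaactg

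The downstream *Ccnd3* window was the only one of the 7 matched windows with the GABPA core, which 8.86% of all 32851 promoter windows hold. *Cdk4* held 4 E-boxes, where 7.15% of windows hold any. *Cdk1* held 3 CCAAT boxes and an E2F motif, where 37.4% of windows hold any CCAAT box and 0.813% any E2F motif. The *Ccnb1* window (chr13:100786437-100786736) held 2 CCAAT boxes, and neither the *Ccne1* window (chr7:38107441-38107740) nor the upstream *Ccnd3* window (chr17:47504801-47505100) held any of these motifs. No window was matched for *Ccnd1*, *Ccnd2*, *Ccne2* or *Ccna2*. A match describes these letters only and does not show binding.

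Library totals were 9457933 to 12382705 counts in morulae and 18266057 to 27660132 elsewhere. *Gabpa* mRNA, which dTAG13 does not target, was higher with dTAG13 at the late 2-cell stage, in the ICM and in 2iES, at 143%, 193% and 191% of DMSO; it cannot serve as a check of protein loss. The spread between libraries was uneven: the biological coefficient of variation was 28.4% at the late 2-cell stage, 21.3% in morulae and 15.9% in 2iES but 2.37% in the ICM, where the 2 libraries of a group differed by 1.62 and 1.69 times the sampling variance, against 2.86 to 16.2 times in other groups. The study describes the libraries as independent biological replicates; whether the 2 ICM libraries of a group share a pool of cells or cDNA was not tested. p-values in the ICM rest on this narrow spread, and values from all 18 libraries in 1 fit are given beside the ICM calls of members that it ends. For the other cell-cycle genes that fit is given mainly as a count, and for the marker lists it is not given. In bulk samples, fewer cells of a type and less RNA per cell cannot be told apart. Differences between stages likewise cannot be told apart from differences in how each stage's libraries were processed.

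In DMSO embryos and cells the members fell into a set that was highest at the late 2-cell stage and a set that was low there and climbed later. *Ccnb1*, *Cdk1*, *Ccna2*, *Ccne1* and *Ccne2* belonged to the first set, and *Ccnd3*, *Cdk4* and *Ccnd1* to the second, while *Ccnd2* and *Cdk2* were highest in the ICM. Compared with the late 2-cell stage, 7 members were lower and 2 higher in morulae, 5 lower and 5 higher in the ICM, and 5 lower and 3 higher in 2iES, where 38.0%, 40.5% and 40.3% of all genes tested were lower and 31.2%, 34.7% and 33.8% higher. Compared with morulae, 6 were higher and 0 lower in the ICM (24.6% and 21% of genes) and 9 higher and 0 lower in 2iES (28.1% and 24.9%), and compared with the ICM, 6 were higher and 3 lower in 2iES (21.9% and 20.7%). The median gene was itself 0.23 to 0.28 lower on the log2 scale in each comparison with the late 2-cell stage.

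The mitotic pair *Ccnb1* and *Cdk1* were the most abundant members at the late 2-cell stage. *Ccnb1* stood at 1646, 1857 and 1837 TPM in the 3 DMSO libraries there, against 182 and 281 in morulae, 334 and 345 in the ICM and 401 and 360 in 2iES. *Cdk1* stood at 1007, 959 and 1111 TPM, then 176 and 245, 375 and 379, and 418 and 426. For both genes the late 2-cell libraries lay far above all others, 2iES was above the ICM (adjusted p = 0.00522 for *Ccnb1* and 0.00075 for *Cdk1*), and the ICM libraries lay above the morula libraries without passing the threshold (adjusted p = 0.0548 and 0.0771). Without morula DMSO replicate 2 both genes passed it there (log2 0.86, adjusted p = 0.000773 for *Ccnb1* and log2 0.49, adjusted p = 0.0133 for *Cdk1*). *Ccna2*, at 347, 326 and 378 TPM in late 2-cell embryos, was at 51.1 to 82.0 TPM in every later DMSO library, and those 3 later stages did not differ from each other past the threshold.

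The G1 genes went the other way. *Ccnd3* was at 7.87, 6.89 and 6.04 TPM in late 2-cell DMSO embryos, 28.8 and 37.5 in morulae, 121 and 127 in the ICM and 57.3 and 39.1 in 2iES, with every neighbouring pair in that order of levels past the threshold with all DMSO libraries. The difference between 2iES and morulae was lost without morula DMSO replicate 1 or 2iES DMSO replicate 1 (adjusted p = 0.0733 and 0.0778), and that between 2iES and the ICM without ICM DMSO replicate 2 or 2iES DMSO replicate 2 (0.0527 and 0.0843). *Cdk4*, the kinase partner of the D-type cyclins, was at 17.7, 12.52 and 23.2 TPM, then 132 and 188, 548 and 562, and 616 and 491. On scaled counts *Cdk4* was 45.2-fold higher in 2iES than at the late 2-cell stage (log2 5.50, SE 0.22, adjusted p = 4.92e-10), the largest stage difference of any member. 2iES and ICM had nearly the same *Cdk4* TPM, while the scaled counts put 2iES 1.75-fold higher (adjusted p = 0.00864, but 0.055 without ICM DMSO replicate 2 and 0.0749 without 2iES DMSO replicate 1); scaling by library totals left 2 members higher in 2iES than in the ICM where the chosen scaling gave 6.

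*Ccnd1*, the cyclin most tied to growth-factor signalling, was at 1.12, 2.00 and 1.27 TPM at the late 2-cell stage and 0.74 and 0.97 in morulae, which did not differ past the threshold (adjusted p = 0.992). It rose to 7.39 and 7.96 TPM in the ICM and 32.7 and 22.9 in 2iES, 24.4-fold above the late 2-cell stage on scaled counts. *Ccnd2* was highest in the ICM, at 28.9 and 12.2 TPM, and lowest in morulae, at 0.23 and 0.38. Its TPM varied more between libraries than its counts, 328 and 333 in those ICM libraries, so its levels are less certain than those of the other members.

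*Ccne1* and *Ccne2*, the cyclin partners of CDK2, were at 248, 183 and 280 TPM and at 56.5, 50.0 and 54.6 TPM in late 2-cell DMSO embryos. *Ccne1* was 36.1 and 39.4 TPM in morulae, 47.6 and 46.6 in the ICM and 90.7 and 69.5 in 2iES, and *Ccne2* was 6.42 and 7.48, 19.2 and 18.9, and 23.0 and 20.7. *Cdk2* did not follow its cyclins: it was highest in the ICM, at 56.9 and 55.6 TPM, against 18.03 to 22.2 at the late 2-cell stage, 8.95 and 11.3 in morulae and 12.6 and 11.2 in 2iES. The late 2-cell stage and 2iES did not differ past the threshold for *Cdk2* (adjusted p = 0.736).

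**Figure D1:**
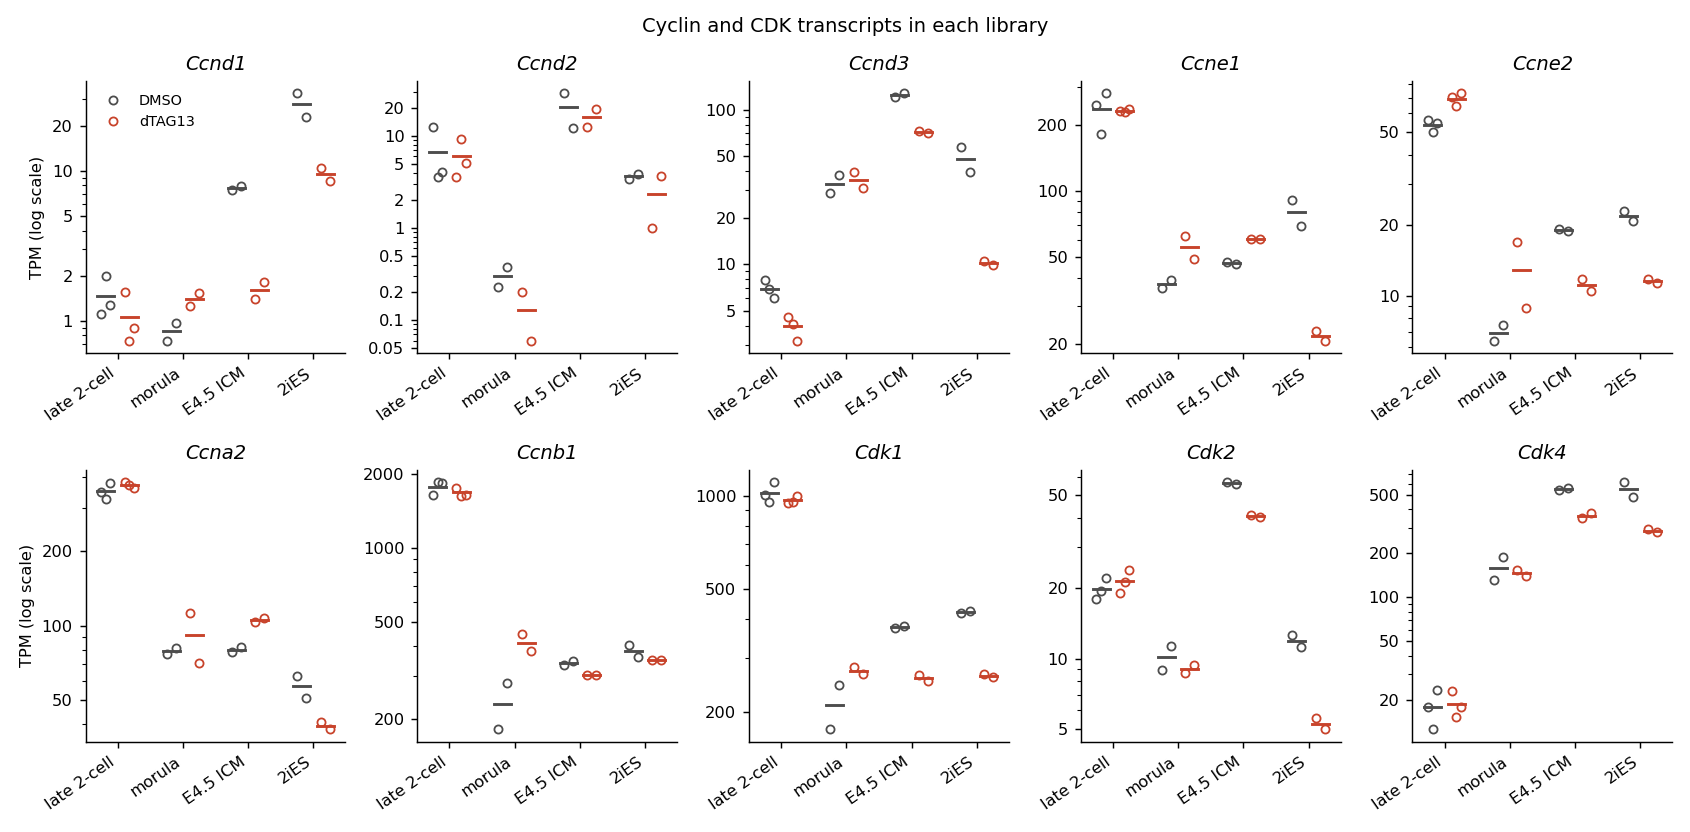
TPM (log axis) of each member in every library by stage, with DMSO and dTAG13 libraries as separate points and each group's mean as a bar. *Ccnb1* falls from 1646–1857 TPM at the late 2-cell stage to 182–281 in DMSO morulae while *Cdk4* climbs from 12.52–23.2 to 132–188, and in 2iES the dTAG13 points of *Ccnd3* (9.89 and 10.5) lie below the DMSO points (39.1 and 57.3).

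Because TPM is scaled for length, the members' shares can be set side by side. *Cdk1* made up 96.1% to 96.8% of the summed TPM of the 3 kinases in late 2-cell DMSO libraries, 55.1% to 55.5% in morulae, 38.0% to 38.3% in the ICM and 40.0% to 45.9% in 2iES, and *Cdk4* supplied most of the rest from the morula on, reaching 55.9% to 56.4% in the ICM. *Cdk2* never exceeded 5.81% in DMSO libraries. Among the 7 cyclins, the D-type cyclins held 0.442% to 0.930% of summed TPM at the late 2-cell stage, 8.69% to 8.97% in morulae, 23.0% to 24.7% in the ICM and 11.6% to 13.9% in 2iES. *Ccna2* and *Ccnb1* together held 85.9% to 89.9% at the late 2-cell stage and 64.8% to 66.7% in the ICM.

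*Ccnd3* was the main D-type cyclin at 3 of the 4 stages. It made 96.6% ± 0.148 (SD, n = 2) of D-type TPM in DMSO morulae, 81.6% ± 6.68 (n = 2) in the ICM and 60.3% ± 1.35 (n = 2) in 2iES. *Ccnd1* held 34.9% ± 0.202 (n = 2) of D-type TPM in 2iES and 5.05% ± 0.491 (n = 2) in the ICM. At the late 2-cell stage *Ccnd3* held 48.4% ± 10.4 and *Ccnd2* 40.8% ± 15.6 (n = 3 each), shares that overlapped between libraries. These shares are a description, since groups of 2 and 3 libraries are too small for an exact test to pass 0.05.

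**Figure D2:**
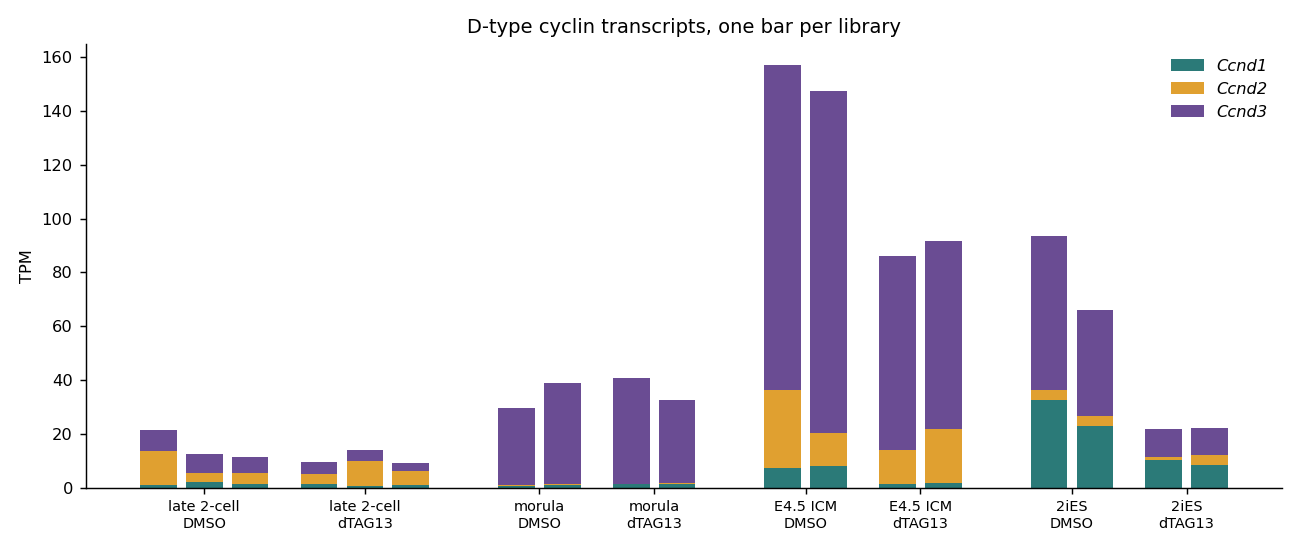
Stacked TPM of *Ccnd1*, *Ccnd2* and *Ccnd3* (linear axis from 0), 1 bar per library, by stage and treatment. The ICM bars are the tallest, at 147 to 157 TPM with DMSO and 86.1 to 91.8 with dTAG13, *Ccnd3* fills nearly all of the morula bars, and the 2iES bars drop to 22.0 to 22.1 TPM with dTAG13.

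Late 2-cell embryos kept most of the set close to DMSO after dTAG13. *Ccnd3* fell and *Ccne2* rose, so 1 of 10 members was lower and 1 higher, where 7.24% of all genes tested were lower and 1.32% higher; neither passed the study's cut-offs, which 3.63% of genes passed downwards and 0.476% upwards. *Ccnd3* stood at 7.87, 6.89 and 6.04 TPM with DMSO and at 4.53, 4.12 and 3.20 with dTAG13 (log2 -0.90, SE 0.22, adjusted p = 0.0299). *Ccne2* stood at 56.5, 50.0 and 54.6 TPM with DMSO and at 70.4, 64.4 and 73.1 with dTAG13 (log2 0.40, SE 0.10, adjusted p = 0.0343). The groups did not overlap for either gene. Both calls were lost on leaving out most single libraries: the *Ccnd3* call was lost on leaving out any library but DMSO replicate 3 (adjusted p 0.0584 to 0.117), and the *Ccne2* call on leaving out any but dTAG13 replicate 2 (0.0704 to 0.118).

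The other 8 members overlapped between groups at the late 2-cell stage. *Ccnb1* was at 1764, 1636 and 1651 TPM with dTAG13 and *Cdk1* at 952, 955 and 1003, 91.0% and 88.7% of DMSO on scaled counts (adjusted p = 0.330 and 0.186). The fitted ratios of *Ccna2*, *Ccne1*, *Cdk2* and *Cdk4* lay between -0.09 and 0.13 on the log2 scale. *Ccnd1* and *Ccnd2* had ratios of -0.42 (SE 0.29) and -0.92 (SE 0.33), neither past the threshold (adjusted p = 0.472 and 0.128), and *Ccnd2* had 64 to 207 counts per library. Oocyte markers summed to 1374 to 1395 TPM with DMSO and 1738 to 2000 with dTAG13 in these embryos, 1 of 7 passing the test. Cumulus cell markers summed to 3.47 to 5.34 and 6.44 to 11.2 TPM, and the only 1 tested was higher. Of 5 primitive endoderm markers tested 1 was higher, of 6 two-cell markers 1 was lower, and no epiblast or trophectoderm marker passed. Over all genes 7.24% were lower and 1.32% higher. The part of these markers in the *Ccne2* result was not tested.

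No member passed the threshold in morulae, where 0.205% of genes tested were lower and 0.161% higher. *Ccnb1* had the smallest p, at 182 and 281 TPM with DMSO and 444 and 378 with dTAG13 (log2 0.85, SE 0.22, adjusted p = 0.131), and *Ccne2* stood at 6.42 and 7.48 against 16.97 and 8.83 TPM (log2 0.87, SE 0.28, adjusted p = 0.204). *Ccne1* stood at 36.1 and 39.4 against 62.2 and 48.9 TPM (log2 0.56, SE 0.20, adjusted p = 0.255). In all 3 the groups did not overlap and the treated libraries were the higher ones. The same held for *Ccnd1* and *Cdk1*. *Ccnd2* did not overlap either, with the treated libraries lower, at 0.23 and 0.38 against 0.20 and 0.06 TPM. The share of all genes without overlap was not counted. With all 18 libraries in 1 fit *Ccnb1*, *Ccne2* and *Ccne1* passed the threshold, at adjusted p = 0.00402, 0.0162 and 0.0388. That fit called 464 genes higher and 130 lower of 21915 tested in morulae, where the stage fit called 22 and 28 of 13667. It also gave every member a higher log2 ratio than the stage fit, such as 0.93 for *Ccnb1*. Without DMSO replicate 2 the *Ccnb1* log2 ratio was 1.22. *Ccnd3* and *Cdk4*, at 33.2 ± 6.20 and 160 ± 39.2 TPM with DMSO, were at 35.2 ± 5.73 and 148 ± 10.0 with dTAG13 (SD, n = 2 each).

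In the E4.5 ICM all 10 members changed, 8 lower and 2 higher, at a stage where 38.5% of genes tested were lower and 38.4% higher. *Ccnd1* was the only one past the study's cut-offs, which 13.2% of genes passed downwards. It dropped from 7.39 and 7.96 TPM to 1.41 and 1.82 (log2 -2.25, SE 0.14, adjusted p = 5.07e-17). The counts behind it were 392 and 323 with DMSO and 76 and 69 with dTAG13, and the treated libraries lay within the 1.12 to 2.00 TPM of late 2-cell DMSO embryos.

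*Ccnd3*, *Cdk4*, *Cdk2* and *Ccne2* fell by less than *Ccnd1* in the ICM. *Ccnd3* went from 121 and 127 TPM to 72.1 and 70.2 (log2 -0.86, SE 0.03, adjusted p = 2.17e-23), and its kinase partner *Cdk4* from 548 and 562 to 349 and 376 (log2 -0.71, SE 0.03, adjusted p = 2.05e-24). *Cdk2* went from 56.9 and 55.6 TPM to 41.0 and 40.2 (log2 -0.53, adjusted p = 1.42e-14), and *Ccne2* from 19.2 and 18.9 to 11.8 and 10.5 (log2 -0.70, adjusted p = 7.31e-12). All 4 had clear gaps between the groups and stayed lower with all 18 libraries in 1 fit (adjusted p at most 0.0203). *Ccnd2*, at 74.3% of DMSO, lost its call in that fit (adjusted p = 0.433), and its TPM overlapped between the groups.

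The paired E-type cyclins parted in the ICM. *Ccne1* was at 47.6 and 46.6 TPM with DMSO and 60.5 and 60.5 with dTAG13 (log2 0.31, SE 0.04, adjusted p = 1.24e-08), opposite in sign to *Ccne2*. *Ccna2* likewise stood at 78.3 and 82.0 TPM and then 104 and 108 (log2 0.25, SE 0.03, adjusted p = 1.86e-09). Neither rise held in the fit of all 18 libraries (adjusted p = 0.131 and 0.163), nor did the fall of *Ccnb1* from 334 and 345 to 304 and 303 TPM (log2 -0.31, adjusted p = 0.154 there). *Cdk1* went from 375 and 379 TPM to 264 and 252 (log2 -0.60, SE 0.03, adjusted p = 1.09e-20) and stayed lower in that fit (adjusted p = 0.000747).

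Cell type markers moved with these ICM results. All 7 trophectoderm markers were higher with dTAG13, with a summed level of 66.7 to 72.7 TPM in DMSO and 776 in both dTAG13 libraries. Most of these sums was *Krt18* and *Krt8*, at means of 23.8 and 40.9 TPM with DMSO and 478 and 270 with dTAG13. *Cdx2*, *Elf5* and *Tfap2a* were under 1 TPM with DMSO and only *Tfap2a* with dTAG13. All 8 epiblast markers were lower, from a sum of 515 to 530 TPM to 344 to 347. Of 8 primitive endoderm markers 5 were higher and 2 lower, with a sum of 1429 to 1464 TPM and then 2337 to 2360. Most of that sum was *Sparc*, at means of 1070 and then 1593 TPM. No marker of these 3 lists was at 0. Their part in the cyclin and kinase results was not tested.

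In 2iES, 8 of 10 members fell and none rose, where 28.1% of genes tested were lower and 26.5% higher. *Ccnd1*, *Ccnd3*, *Ccne1* and *Cdk2* passed the study's cut-offs, which 15.6% of genes passed downwards. *Ccnd3* had the largest change, from 57.3 and 39.1 TPM to 10.5 and 9.89 (log2 -2.36, SE 0.19, adjusted p = 0.000155). *Ccne1* went from 90.7 and 69.5 TPM to 22.9 and 20.8 (log2 -1.81, SE 0.15, adjusted p = 0.000161). Both ended at 28.5% of DMSO or less, with no overlap between the groups.

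*Ccnd1* fell from 32.7 and 22.9 TPM to 10.4 and 8.52 in 2iES (log2 -1.37, SE 0.15, adjusted p = 0.000474) and *Cdk2* from 12.6 and 11.2 to 5.55 and 4.98 (log2 -1.12, SE 0.15, adjusted p = 0.0012). *Cdk4* came close to the cut-offs, from 616 and 491 TPM to 292 and 280 (log2 -0.97, SE 0.14, adjusted p = 0.00134). *Ccne2*, *Cdk1* and *Ccna2* fell to 55.2%, 65.3% and 70.7% of DMSO (adjusted p = 0.00206, 0.00204 and 0.0107). The call was lost for *Ccne2* without dTAG13 replicate 1 (adjusted p = 0.0549), for *Cdk1* without dTAG13 replicate 2 (0.0628) and for *Ccna2* without dTAG13 replicate 1 or 2 (0.118 and 0.193).

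*Ccnb1* was the member least moved in 2iES, at 401 and 360 TPM with DMSO and 350 and 351 with dTAG13 (log2 -0.07, SE 0.09, adjusted p = 0.549), although without DMSO replicate 2 it was called lower (log2 -0.16, adjusted p = 0.0299). *Ccnd2* had 104 and 60 counts with DMSO and 46 and 37 with dTAG13 and did not pass (log2 -0.74, SE 0.34, adjusted p = 0.105), except without DMSO replicate 2 (adjusted p = 0.00627). *Ccna2* and *Ccnb1* went from 69.1% to 72.5% of the 7 cyclins' TPM with DMSO to 87.4% to 87.8% with dTAG13. The summed D-type TPM went from 65.9 to 93.4 down to 22.0 to 22.1, and the share of *Ccnd3* within it from 60.3% ± 1.35 to 46.4% ± 2.14 (SD, n = 2 each).

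Of the markers in 2iES, 4 of 8 epiblast markers were lower, with sums of 352 to 360 TPM in DMSO and 207 to 219 with dTAG13. Trophectoderm markers summed to 107 to 138 TPM and 125 to 131, and 6 of 8 primitive endoderm markers stayed under 1 TPM in both groups. The 4 cumulus cell markers summed to 0.46 to 0.64 TPM with DMSO and 7.92 to 8.16 with dTAG13, *Tnfaip6* being the only one above 1 TPM with dTAG13. Their part in the results was not tested.

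**Figure D3:**
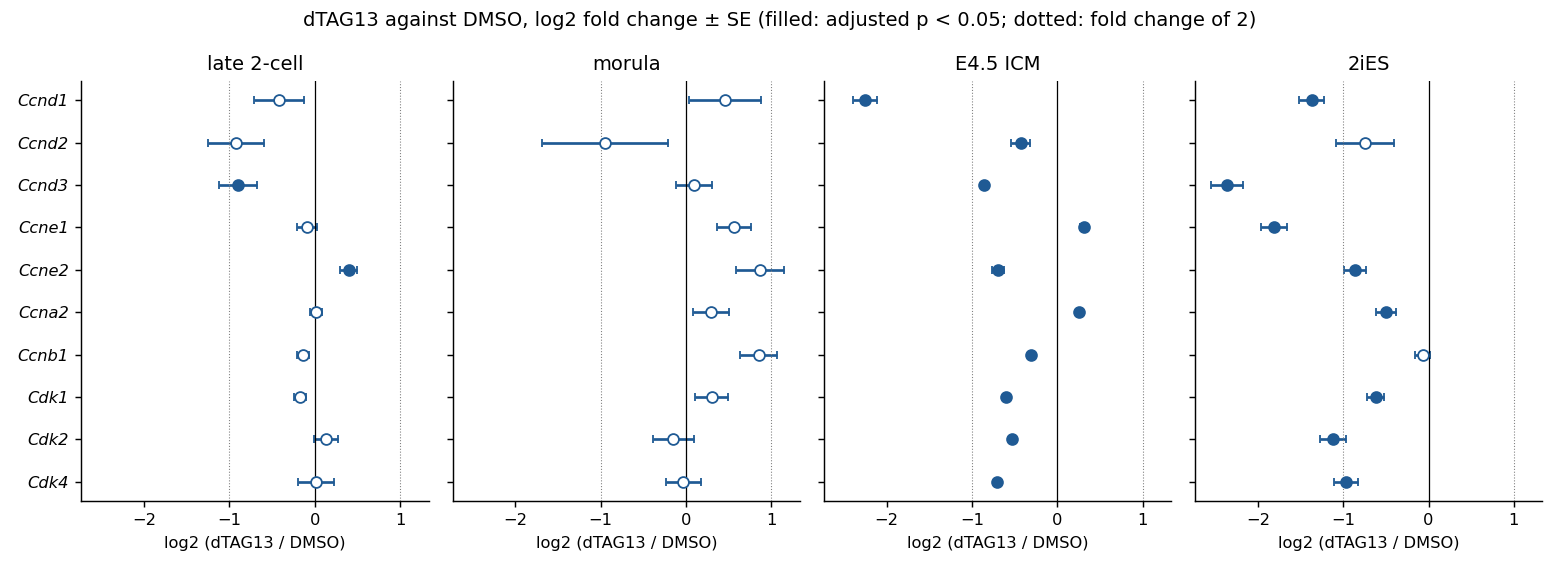
log2 ratio of dTAG13 to DMSO (± SE) for each member at each stage; filled points have an adjusted p under 0.05 and dotted lines mark a fold change of 2. The filled points are 2 at the late 2-cell stage, 0 in morulae, 10 in the ICM with only *Ccnd1* (-2.25) beyond a dotted line, and 8 in 2iES with 4 beyond it.

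Over the 10 members the median log2 ratio was -0.11 at the late 2-cell stage, 0.29 in morulae, -0.56 in the ICM and -0.91 in 2iES, beside medians over all genes tested of 0.02, -0.02, 0.01 and 0.03. The dTAG13 effect itself was compared between stages in a fit of all 18 libraries. Treatment windows differed between the embryo stages, and the dose between embryos and 2iES, so stage cannot be told apart from them. Relative to morulae, the effect was lower for 9 of 10 members in 2iES, *Ccnd2* being the exception, and for 5 of 10 in the ICM, and higher for none in either, where it was lower for 12.0% and 10.6% of all genes tested and higher for 8.25% and 5.44%. Relative to the late 2-cell stage, it was lower for 6 members in 2iES and 3 in the ICM, beside 9.83% and 9.87% of genes, and higher for none, beside 13.1% and 10.4%. In morulae it was higher for 4 and lower for none, beside 5.79% and 0.680% of genes.

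The dTAG13 effect differed between the ICM and 2iES for 3 of 10 members. *Ccne1* had a positive ratio in the ICM and a negative one in 2iES, a difference of -2.07 on the log2 scale (SE 0.22, adjusted p = 1.27e-05). In the fit of all 18 libraries the ICM ratio of *Ccne1* itself did not pass (log2 0.32, SE 0.16, adjusted p = 0.131). The effect was also lower in 2iES for *Ccnd3*, by a log2 difference of -1.46 (SE 0.27, adjusted p = 0.0011), and for *Ccna2*, by -0.70 (SE 0.19, adjusted p = 0.0179), against 7.42% of all genes tested with a lower and 9.93% with a higher effect; the *Ccna2* difference was lost without 2iES DMSO replicate 1 or dTAG13 replicate 2 (adjusted p = 0.0712 and 0.0817) and with the replicate number as a block (0.0526). *Ccnd1* differed by 0.92 in the other direction (SE 0.33, adjusted p = 0.0634), short of the threshold. For *Cdk1* and *Cdk4* the differences were 0.02 (SE 0.16) and -0.22 (SE 0.26).

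The members act among other genes of the cell-cycle machinery, listed in 7 groups of 80 genes in all. None of the 75 tested passed in morulae, where 0.205% of all genes were lower and 0.161% higher. At the late 2-cell stage 3 of 75 were lower and 0 higher, none past the study's cut-offs, beside 7.24% and 1.32% of all genes. In the ICM 35 of 77 tested fell and 26 rose, and in 2iES 32 of 78 fell and 20 rose, beside 38.5% and 38.4%, and 28.1% and 26.5%, of all genes. With all 18 libraries in 1 fit, 17 of those 35 and 13 of those 26 kept their ICM call, beside 3681 lower and 3012 higher of 21915 genes. In morulae that fit called 1 of the 80 lower and 6 higher, beside 130 and 464 of 21915 genes. The lower 1 was *E2f4* (log2 -0.99, adjusted p = 0.0374 there). Past the study's cut-offs were 3 lower and 10 higher in the ICM, which 13.2% and 12.1% of all genes passed, and 11 lower and 9 higher in 2iES, which 15.6% and 12.4% passed.

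Of 7 CDK inhibitors, 2 rose past the cut-offs in both the ICM and 2iES, beside 12.1% and 12.4% of all genes. In the ICM, where *Cdkn2a* was not tested, *Cdkn1b* fell without passing the cut-offs (log2 -1.01, SE 0.34, adjusted p = 0.00744). *Cdkn1a*, encoding p21, went from 36.7 and 38.8 TPM to 165 and 169 in the ICM and from 124 and 116 to 428 and 422 in 2iES. *Cdkn2b*, encoding the CDK4 and CDK6 inhibitor p15, went from 0.65 and 0.71 TPM to 2.65 and 2.18 in the ICM and from 1.54 and 1.64 to 6.34 and 7.87 in 2iES. No library of these 4 comparisons overlapped with the other group. *Ccng1*, a cyclin that is a known p53 target, as *Cdkn1a* is, went from 29.1 and 27.9 TPM to 131 and 131 in the ICM and from 32.8 and 35.2 to 149 and 142 in 2iES (log2 2.15 and 2.17).

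The pocket proteins and E2F factors, the targets of cyclin D and cyclin E kinases, moved both ways. *E2f4*, a mainly repressive E2F that acts with the pocket proteins, had the largest fall past the study's cut-offs among the 80 genes, from 63.8 and 67.2 TPM to 2.67 and 3.88 in the ICM (log2 -4.32, SE 0.08, adjusted p = 2.57e-34) and from 85.9 and 58.0 to 1.99 and 2.05 in 2iES (log2 -5.33, SE 0.23, adjusted p = 2.5e-05). *Rbl2*, which encodes the pocket protein p130, rose by 1.78 in the ICM and 2.86 in 2iES on the log2 scale of counts. In the ICM its TPM differed less, at 1.52 and 1.07 with DMSO and 2.20 and 2.22 with dTAG13, on 42 and 40 DMSO counts. *Rb1*, the retinoblastoma gene, rose by 3.41 in 2iES, from 1.77 and 0.96 TPM to 11.0 and 6.13; its rise of 1.23 in counts in the ICM was not seen in TPM, which averaged 3.33 and 2.79. *E2f5* fell by 2.39 in the ICM, *E2f7* rose there by 1.44 in counts while its TPM overlapped, at 0.92 and 1.93 with DMSO and 2.42 and 1.83 with dTAG13. *E2f8* fell by 1.89 in 2iES.

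Among the other cyclins and kinases, *Cdk10* fell at both stages, from 12.99 and 14.7 TPM to 7.81 and 6.54 in the ICM (log2 -1.42) and from 15.7 and 11.8 to 4.36 and 4.30 in 2iES (log2 -3.00). These log2 ratios are of counts and are larger than the changes in TPM. The 2iES counts were 742 and 578 with DMSO and 75 and 64 with dTAG13. *Cdk6*, the second kinase partner of the D-type cyclins, was low in the ICM and rose from 0.67 and 0.55 TPM to 2.64 and 3.02 (log2 1.95) while *Cdk4* fell. In 2iES *Cdk16* and *Cdk9* fell by 1.81 and 1.06 on the log2 scale, and *Ccna1* and *Ccnt2* rose by 1.85 and 1.15. The *Ccna1* rise, on 20 and 22 counts with DMSO, was lost with all 18 libraries in 1 fit (adjusted p = 0.084). *Ccng2* rose by 1.34 in the ICM, and *Cdk14* by 1.05 in counts, though its TPM, 0.29 and 2.12 with DMSO and 0.65 and 0.76 with dTAG13, overlapped.

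Of 8 cyclin ubiquitination genes, 5 fell and 2 rose in the ICM and 6 fell and 2 rose in 2iES, and of 12 mitotic genes, 9 fell and 2 rose in the ICM and 7 fell and 1 rose in 2iES, beside 38.5% and 38.4% of all genes in the ICM and 28.1% and 26.5% in 2iES. Falls past the cut-offs in 2iES were those of *Cdc20* and *Fzr1*, the activators of the anaphase-promoting complex, at log2 -2.06 and -1.30, its inhibitor *Fbxo5* at -1.17, and the mitotic genes *Aurkb* and *Mad2l1* at -1.52 and -1.38. With all 18 libraries in 1 fit the ICM falls of *Fbxo5* and *Fzr1* were lost (adjusted p = 0.123 and 0.324), and that of *Cdc20* was kept (0.000832). *Fbxw7*, whose ubiquitin ligase targets cyclin E, rose from 3.52 and 4.86 TPM to 39.8 and 37.5 in 2iES (log2 3.18, SE 0.18, adjusted p = 5.28e-05) and from 4.53 and 4.43 to 11.1 and 11.0 in the ICM (log2 1.12). *Pkmyt1*, a kinase that inhibits CDK1, fell from 4.37 and 3.06 TPM to 1.42 and 1.63 in 2iES (log2 -1.24).

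**Figure D4:**
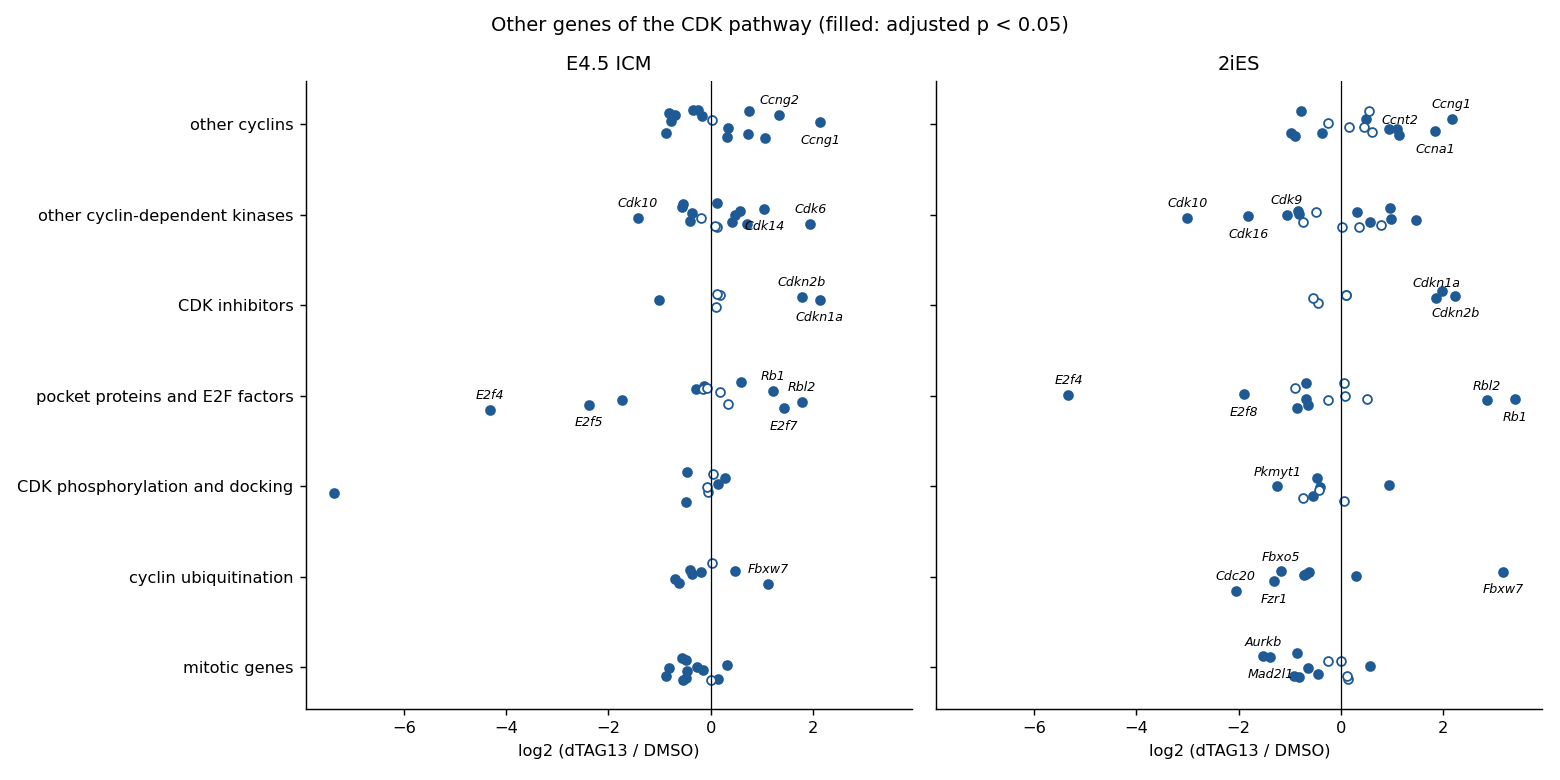
log2 ratio of dTAG13 to DMSO for the tested genes of 7 cell-cycle lists in the ICM and in 2iES; filled points have an adjusted p under 0.05, and labels name up to 3 genes per list and direction past the study's cut-offs. *E2f4* lies far to the left at both stages (-4.32 and -5.33), and *Cdkn1a*, *Cdkn2b*, *Ccng1*, *Rbl2*, *Rb1* and *Fbxw7* lie to the right at both; the unlabelled point farthest left in the ICM is *Cdc25b* (-7.38), which is under the FPKM minimum and is named for its place in the plot.

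The genes most like the 4 members past the cut-offs were named by Pearson's r of log2(mean TPM + 1) over the 8 groups among 9381 genes. For *Ccnd3* they were *Srm* (r = 0.992), encoding spermidine synthase, and *Dus1l* (0.991), and for *Cdk2* they were *Nop9* (0.996) and *Pkmyt1* (0.994). For *Ccnd1* they were *Srrm4os* (0.994) and *Myl7* (0.990), and for *Ccne1* they were *Cenps* and *Gm4349* (0.975 each). The 8 points share their libraries, and with so many genes and so few points values of this size are a description only.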

How the data were processed

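RNA-seq libraries (SMART-Seq v4 and Nextera XT, no strand information) were trimmed, aligned to GRCm38 and quantified by the authors with Trimmomatic, STAR and RSEM. The deposited tables give an expected count, a TPM and an FPKM value per gene and library, where TPM and FPKM are scaled by the authors for length and depth. Expected counts were rounded, genes with at least 10 counts in as many libraries as the smaller group were kept, and dTAG13 was tested against DMSO within each stage with edgeR 4.0.16 (TMM scaling, quasi-likelihood test). Stage differences between DMSO libraries and differences of the dTAG13 effect used 1 fit over their libraries. P-values were Benjamini-Hochberg adjusted over all genes tested. The fits were tested on simulated data. Alternatives were other scalings, no filter, DESeq2 1.42.0, limma 3.58.1 on log2(TPM + 1), all 18 libraries in 1 fit, the replicate number as a block and leaving out each library.

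The members and gene lists were chosen with earlier results of these data known. Named beside the members were *Gabpa*, up to 3 genes per list, stage and direction past the study's cut-offs, and for each member past them the 2 genes with the highest correlation. Gene positions are from GENCODE M21 and promoter windows from RefSeq (GRCm38.p6). Replicate numbers did not pair libraries (correlation of deviations -0.133 to 0.0546). The chromatin libraries of the series were not analysed here.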

Additional observations from a re-analysis of the deposited data

Results flagged for a closer look

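The dTAG13 effect on the log2 scale differed between stages past the threshold, by a test of the difference itself, for 30 of the 60 pairs of a member and 2 stages. Over all genes tested, the fewest differed in morulae against the late 2-cell stage, 0.680% lower and 5.79% higher. The most differed in 2iES against the late 2-cell stage, 9.83% lower and 13.1% higher. Groups of 2 or 3 libraries are too small for a test of single outlying libraries, and the 6 stage pairs share libraries. Relative to the late 2-cell stage, the morula effect was higher by 1.07 for *Ccnd3*, 0.74 for *Ccne1*, 1.08 for *Ccnb1* and 0.56 for *Cdk1*. Of these only the *Ccnb1* difference kept its call whichever library was left out, and the adjusted p of the others without 1 library ran up to 0.0909, 0.227 and 0.206. In the ICM the effect relative to the late 2-cell stage was -1.81 for *Ccnd1*, -1.08 for *Ccne2* and -0.63 for *Cdk2*, the last of which lost its call without any single ICM library (adjusted p 0.0597 to 0.0882).

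In 2iES the effect relative to the late 2-cell stage was -0.88 for *Ccnd1*, -1.40 for *Ccnd3*, -1.65 for *Ccne1*, -1.19 for *Ccne2*, -1.18 for *Cdk2* and -0.90 for *Cdk4*, where the median gene differed by 0.19. The *Ccnd1* difference lost its call without late 2-cell DMSO replicate 1, 2iES DMSO replicate 1 or either 2iES dTAG13 library (adjusted p 0.0575 to 0.192), and the *Cdk4* difference without 2iES DMSO replicate 1 or dTAG13 replicate 2 (adjusted p = 0.0749 and 0.0505).

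Relative to morulae, the ICM effect was -2.77 for *Ccnd1*, -1.01 for *Ccnd3*, -1.64 for *Ccne2*, -1.23 for *Ccnb1* and -0.96 for *Cdk1*. The *Ccnd3* difference lost its call without morula DMSO or dTAG13 replicate 1 or any ICM library (adjusted p 0.0597 to 0.084). In 2iES the effect relative to morulae was -1.84 for *Ccnd1*, -2.47 for *Ccnd3*, -2.39 for *Ccne1*, -1.76 for *Ccne2*, -0.81 for *Ccna2*, -0.94 for *Ccnb1*, -0.94 for *Cdk1*, -0.99 for *Cdk2* and -0.96 for *Cdk4*. The *Cdk4* difference lost its call without morula DMSO replicate 1, 2iES DMSO replicate 1 or 2iES dTAG13 replicate 2 (adjusted p 0.053 to 0.072). Between the ICM and 2iES the 3 differences were -1.46 for *Ccnd3*, -2.07 for *Ccne1* and -0.70 for *Ccna2*.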

How the results depend on the processing

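Members lower at the late 2-cell stage numbered 0 in place of 1 with upper quartile scaling, limma or the study's cut-offs, and members higher 0 in place of 1 with limma, all 18 libraries in 1 fit or the cut-offs. Members higher in morulae numbered 1 without a filter, with DESeq2 or with the replicate block, and 3 with all 18 libraries, in place of 0. In the ICM the cut-offs left 1 of 8 lower and 0 of 2 higher, and all 18 libraries left 0 higher; in 2iES the cut-offs left 4 of 8 lower. The log2 sign turned for values near 0: late 2-cell *Ccne1* 0.03 and 2iES *Ccnb1* 0.11 with upper quartile scaling, and *Cdk4* -0.01 at the late 2-cell stage and 0.05 in morulae with all 18 libraries. Between DMSO stages, library totals gave 0.06 for *Ccne1* (ICM against morula), -0.25 for *Ccna2* (2iES against morula) and 2 members higher in 2iES than in the ICM in place of 6.

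Members with a higher effect in morulae than at the late 2-cell stage numbered 2 with size factors, without a filter or with the replicate block and 1 with library totals, in place of 4. Those with a lower effect in the ICM than at the late 2-cell stage numbered 5 with size factors, library totals or DESeq2 in place of 3, and those higher in 2iES than in the ICM 1 with DESeq2 in place of 0; the *Cdk1* difference there was -0.02 with size factors and with DESeq2, -0.04 with library totals and -0.07 without a filter. The cause of these changes was not tested. Leaving out each library gave 0 to 1 members lower and 0 to 1 higher at the late 2-cell stage, 0 to 1 higher in morulae, 1 to 4 with a higher effect in morulae than at the late 2-cell stage, 2 to 5 lower in the ICM than there, and 0 to 1 higher in 2iES than in the ICM. Log2 ranges across 0 were -0.22 to 0.03 for *Ccne1*, -0.01 to 0.04 for *Ccna2* and -0.14 to 0.20 for *Cdk4* at the late 2-cell stage; -0.01 to 0.85 for *Ccnd1*, -0.08 to 0.28 for *Ccnd3*, -0.32 to 0.04 for *Cdk2* and -0.21 to 0.18 for *Cdk4* in morulae; and -0.16 to 0.03 for *Ccnb1* in 2iES. Stage differences ran from -0.20 to 0.18 for *Ccnd1* (morula against late 2-cell), -0.17 to 0.02 for *Cdk2* (2iES against late 2-cell), -0.28 to 0.07 for *Ccna2* (ICM against morula) and -0.06 to 0.29 for *Ccna2* (2iES against morula), and effect differences between ICM and 2iES from -0.60 to 0.18 for *Ccnd2* and -0.04 to 0.09 for *Cdk1*. Where 1 library was left in a group, it was assumed to vary like the others.

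Shares of the D-type cyclins in expected counts, which are not scaled for length, were for *Ccnd1*, *Ccnd2* and *Ccnd3* 4.73%, 1.81% and 93.5% in DMSO and 6.28%, 0.846% and 92.9% in dTAG13 morulae, and 22.1%, 26.0% and 52.0% in dTAG13 late 2-cell embryos, with *Ccnd1* at 17.2% in DMSO. They were 6.47% for *Ccnd1* and 5.99% for *Ccnd2* in DMSO ICM, 2.50%, 8.21% and 89.3% in dTAG13 ICM, 41.9%, 1.62% and 56.5% in DMSO 2iES, and 57.3% for *Ccnd1* and 39.2% for *Ccnd3* in dTAG13 2iES, while FPKM gave 2.48% for *Ccnd1* in DMSO morulae. Over all genes, DESeq2 called 84 lower and 77 higher in morulae, all 18 libraries 130 and 464 and the replicate block 201 and 191, no filter 194 and 175, library totals 88 and 40 and limma 5 and 4, where the chosen fit called 28 and 22. At the late 2-cell stage the 230 higher became 526 with DESeq2, 570 without a filter, 359 with limma and 422 with all 18 libraries; 1262 lower and 230 higher became 957 and 482 with upper quartile scaling and 1059 and 365 with library totals, and in the ICM the 6098 lower and 6076 higher became 3681 and 3012 with all 18. Same-numbered libraries of 2iES deviated in opposite directions, and a crossed pairing, tried after seeing the data, gave 4496 lower and 4421 higher against 4124 and 4035 with the replicate block; the block also ended the calls of *Ccne1* and *Cdk1* for a higher effect in morulae than at the late 2-cell stage (adjusted p = 0.0661 and 0.0626) and that of *Ccna2* between 2iES and the ICM (0.0526), brought *Ccnb1* past the threshold in morulae (0.0129), and changed no other call of a member. Morula libraries were the shallowest, at most 12382705 counts, with 2 libraries per group; whether depth limited the calls there was not tested.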
